A study of Mus musculus with 8 samples.

Results

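One array of OSKH induced pluripotent stem cells (iPSCs), OSKH 4, was set against the arrays OSKH 1, OSKH 2 and OSKH 3, with 3 arrays of OSK iPSCs and 1 array of embryonic stem cells (ESC) as reference. The genes described are those whose level on OSKH 4 lay at least 1 log2 unit outside the range of the other 6 iPSC arrays. A set of 607 genes met this, 557 above the range and 50 below it, of 25587 genes and unnamed transcripts measured on at least 1 array. Because the genes were chosen by their values on OSKH 4, its distance from the other arrays is a description with no test, and OSKH 4 is 1 array with no replicate.

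The samples were undifferentiated mouse cells of strain C57BL/6J, and the ESC array held RNA of the line B6J-23. OSK is the usual shorthand for reprogramming with Oct4, Sox2 and Klf4, and the series names OSK iPSCs as its control group. The study is known for adding H1foo, a linker histone of the oocyte, and the H of OSKH is taken to stand for it, although the labels do not spell out the letters. All iPSC arrays therefore share the OSK factors. Neither the delivery of the factors nor whether each array stands for its own line, clone or culture was given in the sources used here. P-values then measure only the spread between these arrays, which may be technical.

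In the mouse embryo at gastrulation, cells leave the pluripotent epiblast through the primitive streak under Nodal, Wnt, BMP and FGF signals. The front of the streak gives rise to the anterior mesendoderm, the node and the definitive endoderm, and is marked by the transcription factors Gsc, Foxa2 and Lhx1. These cells secrete inhibitors of Wnt, BMP and Nodal signalling that pattern the head, a property known as organiser activity.

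Start sites of 4 genes are shown because Gsc and Lhx1 are markers of the set with 1 RefSeq start site listed and T and Sp5 are textbook targets of Wnt signalling. Foxa2, the other marker, has 3 start sites listed and is not shown. Each line holds the 250 bases before the RefSeq start site in assembly GRCm38.p6, 5′ to 3′ on the gene's own strand. The positions are chr12:104473237-104473486 (minus strand) for Gsc, chr11:84525535-84525784 (minus strand) for Lhx1, chr17:8434173-8434422 (plus strand) for T and chr2:70474673-70474922 (plus strand) for Sp5. Capitals mark the TCF/LEF core motif CTTTGA, on either strand, the letters bound by the DNA-binding partners of beta-catenin.
Gsc: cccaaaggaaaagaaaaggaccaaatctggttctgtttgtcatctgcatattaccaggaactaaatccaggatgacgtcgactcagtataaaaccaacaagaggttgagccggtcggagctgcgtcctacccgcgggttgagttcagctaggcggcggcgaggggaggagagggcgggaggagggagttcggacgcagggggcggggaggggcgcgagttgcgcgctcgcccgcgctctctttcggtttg
Lhx1: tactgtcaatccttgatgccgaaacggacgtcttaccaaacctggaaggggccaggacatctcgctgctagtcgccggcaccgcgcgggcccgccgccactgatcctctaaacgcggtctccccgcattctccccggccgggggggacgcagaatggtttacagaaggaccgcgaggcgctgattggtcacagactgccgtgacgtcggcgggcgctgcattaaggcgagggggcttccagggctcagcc
T: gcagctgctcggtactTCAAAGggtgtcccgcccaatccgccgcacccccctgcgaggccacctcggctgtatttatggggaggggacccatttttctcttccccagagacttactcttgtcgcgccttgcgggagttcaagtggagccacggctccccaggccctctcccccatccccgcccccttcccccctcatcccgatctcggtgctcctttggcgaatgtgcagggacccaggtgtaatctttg
Sp5: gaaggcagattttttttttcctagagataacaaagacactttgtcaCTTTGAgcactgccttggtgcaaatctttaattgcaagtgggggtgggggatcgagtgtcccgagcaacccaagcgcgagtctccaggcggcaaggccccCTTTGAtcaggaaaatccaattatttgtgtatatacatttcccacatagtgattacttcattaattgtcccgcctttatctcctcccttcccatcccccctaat
The T sequence holds 1 such core, that of Sp5 holds 2, and those of Gsc and Lhx1 hold 0, as did the windows of Foxa2 (the first of its start sites) and Cer1, which were also searched. RefSeq start sites were matched for 286 of the 397 named genes above the range, and in windows of 300 bases (250 before the start and 50 after) the core stood in 47 of them (16.4%), against 16.2% of all 27025 windows and 12.2% of the 11032 windows of genes measured on OSKH 4. The T-box core GGTGTGA stood in 2.45% of the 286 windows, 3.96% of all and 3.52% of those of genes measured on OSKH 4. The FOXH1 core TGTGGATT stood in 1.05%, or 3 windows, against 0.873% of all and 0.48% of measured genes, and the forkhead core TGTTTAC in 4.20% against 3.55% and 2.53%. All 4 motifs were searched on both strands. A match is a string of letters in these windows and shows no binding.

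Levels are log2 signal relative to the 75th percentile of the same array, so 0 is the level that 75% of probes lie below, and a level is compared between arrays, never between genes. A probe is called measured where the scanner software marked it well above background. Over all measured features the median of OSKH 4 minus the mean of the other 6 iPSC arrays was -0.037. Scaling each array to its own 75th percentile keeps this median small, so it does not show how far the arrays differ. OSKH 4 had the smallest share of probes well above background, 51.4% against up to 59.0%, its 75th percentile signal of 443 lay within the 424 to 501 of the 8 arrays, and no probe was saturated. Spots of the same probe differed by a median SD of 0.0643 on OSKH 4, within the 0.0591 to 0.0694 of all arrays, and for the 557 genes above the range the scanner's own error of the OSKH 4 signal had a median of 11.2%. All arrays lay on 1 slide with 1 scan time. ESC and OSKH 1 to 3 filled its first row, OSKH 4 and OSK 1 to 3 its second, and ESC and OSKH 4 were the arrays of its first column.

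The 557 genes above the range were 2.61% of the 21380 measured on OSKH 4, and the 50 below it were 0.247% of the 20233 measured on all of the other 6. The 557 comprised 397 named genes and 160 transcripts that keep the identifier in the files. For 260 of the 557 none of the other 6 iPSC arrays measured the probe, for 140 some did, and for 157 all did. When every value below background was raised to the lowest signal well above background on its array, a floor between -5.02 and -4.05, 480 of the 557 kept the margin of 1, 164 reached 2 and 24 reached 4. With normexp, another background correction, 234 of the 557 and 2 of the 50 were left. Folds below are taken against the mean of the 6 arrays with this floor, and are written as at least that fold where any of the 6 did not measure the gene, since the floor can only raise their mean. In bulk RNA of this kind, a change in the number of cells of a type and a change in RNA per cell cannot be told apart.

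The 3 organiser markers stood far above the other iPSC arrays on OSKH 4. Gsc, a homeobox factor of the organiser, read 2.59 on OSKH 4, against -3.78, -4.98 and -4.22 on OSKH 1, 2 and 3, -4.92, -5.06 and -4.22 on OSK 1, 2 and 3, and -1.73 on ESC. Foxa2, a forkhead factor of node and endoderm, read 4.03 on OSKH 4, against -2.86, -2.52 and -1.24 on OSKH 1 to 3, -4.40, -3.86 and -2.93 on OSK 1 to 3, and 0.80 on ESC. Lhx1, a LIM homeobox factor needed for the head organiser, read 0.33 on OSKH 4, against -4.04, -3.76 and -3.57 on OSKH 1 to 3, -3.35, -3.51 and -3.35 on OSK 1 to 3, and -3.21 on ESC. For each marker OSKH 4 was the highest of all 8 arrays and ESC came second. OSKH 1 to 3 overlapped the OSK arrays in Gsc, lay above all of them in Foxa2 and below all of them in Lhx1. The fold over the 6 was at least 116 for Gsc (measured on 3 of the 6), at least 127 for Foxa2 (5 of 6) and 15.2 for Lhx1 (6 of 6). The linear signals of the 3 markers, each relative to the 75th percentile, summed to 23.6 on OSKH 4, 0.271 to 0.560 on OSKH 1 to 3, 0.179 to 0.284 on the OSK arrays and 2.15 on ESC.

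The markers of undifferentiated pluripotent cells were all measured on every array. Their sum of 633 on OSKH 4 lay within the 528 to 873 of OSKH 1 to 3 and the 584 to 724 of OSK, with ESC at 749, and 0 of the 7 markers met the rule. Pou5f1, which encodes Oct4, read 6.09 on OSKH 4, against 6.23, 6.17 and 6.27 on OSKH 1 to 3, 6.14, 6.15 and 6.25 on OSK 1 to 3, and 6.41 on ESC. Nanog read 2.28 on OSKH 4, against 2.20, 1.43 and 1.91, then 1.56, 1.33 and 1.36, and 2.11 on ESC. OSKH 4 thus gave the lowest Pou5f1 reading and the highest Nanog reading of the 8, each close to its neighbour. Of the 28 core and naive pluripotency genes measured on OSKH 4, 0 met the rule in either direction. Over all measured genes 2.61% met it above and 0.247% below, so a count of 0 in 28 says little. Of the 28, 4 lay below all of the 6 and 1 above, beside 5247 and 3565 of all 25587 measured features. Their median difference was 0.05 from the mean of the 6 and -0.31 from ESC, against -0.04 and -0.08 over all measured features. The summed markers thus lay within the range of the other iPSC arrays, beside the organiser genes above.

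Markers of other cell types were summed in the same way. Feeder fibroblast markers (Col1a1, Col1a2, Col3a1, Postn, Thy1, Dcn and Lum) summed to 24.1 on OSKH 4 and 22.5 on ESC, against 8.40 to 13.3 on OSKH 1 to 3 and 5.38 to 10.2 on OSK. Of these 7, 6 met the rule on OSKH 4, and Lum was not well above background on any of the 6 other iPSC arrays. Primitive endoderm markers summed to 4.48 on OSKH 4, against 0.331 to 0.508, 0.218 to 0.344 and 0.435 on OSKH 1 to 3, OSK and ESC, and 3 of 5 met the rule. These were Gata4, Gata6 and Sox17, all shared with the definitive endoderm list below, while Sox7 and Dab2 lay inside the range. Trophectoderm markers summed to 2.34 against 0.354 to 0.637, 0.345 to 0.500 and 0.695, with 2 of 4 meeting it and Elf5 not well above background on OSKH 4. Neural markers summed to 7.30 on OSKH 4, against 6.68 to 9.76 on OSKH 1 to 3, 9.11 to 9.91 on OSK and 9.33 on ESC. Blood markers summed to 0.854 on OSKH 4, above the 0.335 to 0.678, 0.414 to 0.488 and 0.554 of OSKH 1 to 3, OSK and ESC, but 0 of 3 met the rule and Ptprc was not well above background. The part of these cell type markers in the results was not tested.

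**Figure D1:**
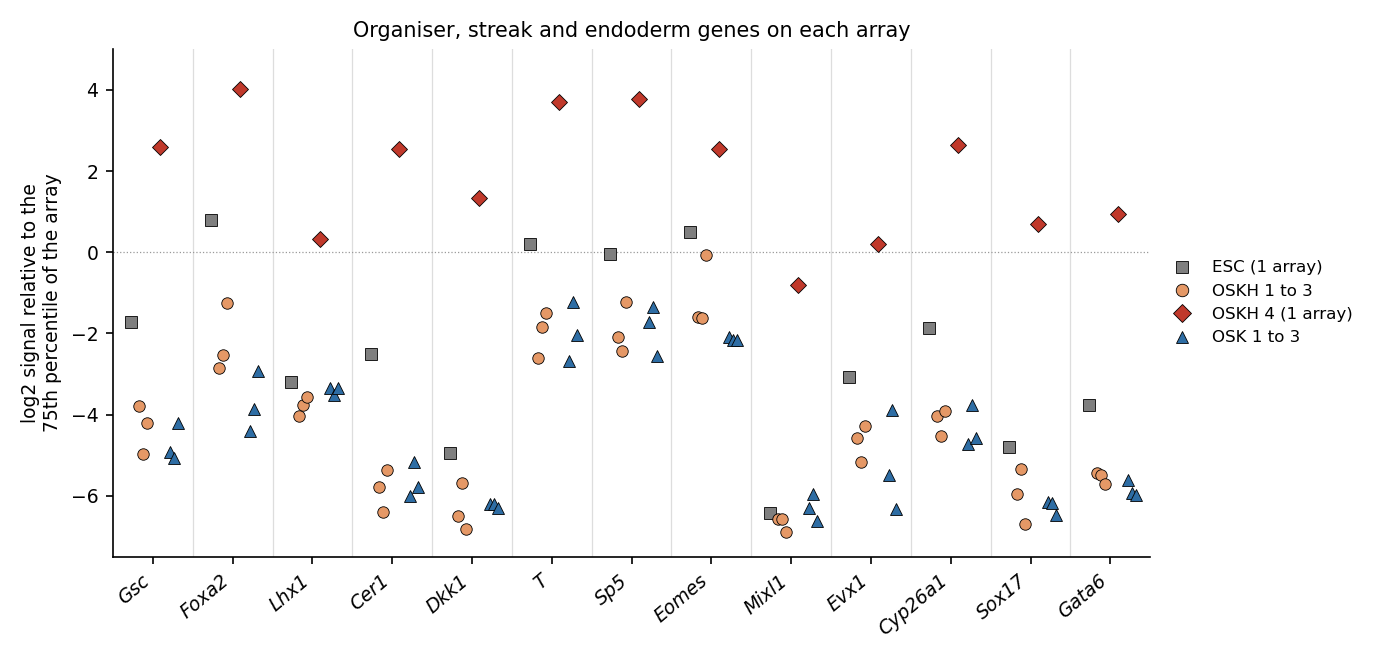
Level of 13 genes (log2 signal relative to the 75th percentile) on each of the 8 arrays: ESC as a square, OSKH 1 to 3 as circles, OSKH 4 as a diamond and OSK 1 to 3 as triangles. In every gene shown the OSKH 4 symbol is the highest, from Cer1 at 2.54 with the other iPSC arrays below -5 to Eomes at 2.53 with OSKH 3 at -0.06.

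Of the organiser and anterior mesendoderm list, 9 of the 19 genes measured on OSKH 4 met the rule upward, beside 2.61% of all measured genes. The median of the list on OSKH 4 minus the mean of the 6 was 1.69. Secreted inhibitors made up 4 of the 9. Chrd and Nog, secreted BMP inhibitors of the same list, were measured on all arrays but did not meet the rule, with margins of 0.12 and 0.07. Otx2, Hhex, Fst and Sfrp1 stood only 0.25, 0.72, 0.38 and 0.22 above the range, and Hesx1 and Foxh1 lay inside it. Cer1, a secreted inhibitor of Nodal, BMP and Wnt, had the widest margin of all 557 genes, 7.71: it read 2.54 on OSKH 4, against -5.79, -6.40 and -5.36 on OSKH 1 to 3, -6.01, -5.17 and -5.78 on OSK 1 to 3, and -2.50 on ESC. None of the 6 measured it, and it was at least 149-fold higher on OSKH 4. Dkk1, which blocks the Wnt co-receptors, read 1.32 on OSKH 4, against -6.50, -5.68 and -6.82 on OSKH 1 to 3, -6.20, -6.20 and -6.29 on OSK 1 to 3, and -4.94 on ESC. Only OSKH 4 measured Dkk1, at least 64.0-fold above the mean of the 6. Frzb, a decoy receptor that binds Wnt proteins, read -1.07 on OSKH 4 and between -6.15 and -5.18 on the other iPSC arrays, none of which measured it, a difference of at least 12.2-fold. Sfrp5, of the same decoy family, read 1.27 on OSKH 4, against -2.57, -2.33 and -2.08 on OSKH 1 to 3, -1.95, -2.03 and -2.03 on OSK 1 to 3, and -2.55 on ESC. All arrays measured Sfrp5, OSKH 1 to 3 lay below the OSK arrays, and OSKH 4 was 10.8-fold above the mean of the 6.

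Besides the organiser markers and these inhibitors, the genes of the list that met the rule were Eomes and Mixl1, transcription factors of the early streak. Eomes, a T-box factor that specifies mesendoderm, read 2.53 on OSKH 4, against -1.60, -1.63 and -0.06 on OSKH 1 to 3, -2.08, -2.17 and -2.17 on OSK 1 to 3, and 0.49 on ESC. OSKH 1 to 3 all lay above the OSK arrays, with OSKH 3 the highest of them. ESC lay between OSKH 3 and OSKH 4, which was 17.8-fold above the mean of the 6. Mixl1, a homeobox factor of the streak, read -0.80 on OSKH 4 and between -6.90 and -5.97 on the other iPSC arrays, with ESC at -6.43. OSKH 4 alone measured Mixl1, at least 14.7-fold above the 6.

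Primitive streak and mesoderm genes stood above the range in 15 of the 24 measured on OSKH 4 (all measured genes, 2.61%), with a median difference of 2.36 from the mean of the 6. T, the Brachyury factor of the streak and notochord, read 3.71 on OSKH 4, against -2.61, -1.83 and -1.50 on OSKH 1 to 3, -2.68, -1.22 and -2.05 on OSK 1 to 3, and 0.21 on ESC. Every array measured T, and OSKH 4 was 51.8-fold above the mean of the 6. Sp5, a zinc finger factor induced by Wnt signalling and the gene whose start site above holds 2 TCF/LEF cores, read 3.78 on OSKH 4, against -2.10, -2.43 and -1.24, then -1.72, -1.36 and -2.57, and -0.06 on ESC. For T and Sp5 alike the 2 iPSC groups overlapped, ESC came next, and OSKH 4 was highest. Evx1, a homeobox factor of the posterior streak, read 0.21 on OSKH 4, against -4.58, -5.17 and -4.27, then -5.49, -3.88 and -6.33, and -3.08 on ESC. Of the 6, 1 array measured Evx1, and OSKH 4 lay at least 25.6-fold above their floored mean.

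Signals and targets of the streak were among the 15. Fgf8, an FGF of the streak, read 3.65 on OSKH 4, against -0.97, 1.26 and 1.98 on OSKH 1 to 3, 0.19, 0.64 and 1.22 on OSK 1 to 3, and 0.90 on ESC, so that OSKH 3 came next. Wnt3, the ligand that starts streak formation, read -0.23 on OSKH 4, against -4.01, -2.58 and -1.82, then -3.38, -2.01 and -2.52, and -2.08 on ESC. Its margin of 1.58 was smaller than the range of the 6 arrays, which reached from -4.01 to -1.82. Cdx2, a caudal factor of the posterior embryo and of trophectoderm, read 0.23 on OSKH 4, against -5.99, -4.87 and -5.33, then -5.34, -2.64 and -4.08, and -2.96 on ESC. Of the 6 arrays, 2 measured Cdx2, with OSK 2 the highest. Others of the 15 were Mesp1, Pdgfra, Cdx1, Axin2 and Sp8, with margins of 1.80, 3.17, 1.19, 1.39 and 1.69. Mesp1 and Pdgfra were not measured on any of the 6, and a further probe of Sp8 did not lie above the range (-0.044). The rest of the streak and mesoderm list did not meet the rule. Snai1, Snai2, Fgf4, Bmp4 and Lefty2 lay inside the range. Wnt8a, Nkx1-2, Tbx6 and Kdr had margins of 0.69, 0.58, 0.21 and 0.08. Mesp2, Msgn1, Hand1, Foxf1, Cdx4 and Wnt3a were not well above background on OSKH 4.

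Across the list of Wnt ligands, inhibitors and targets, 10 of 29 measured genes met the rule, beside 2.61% of all measured genes. The median difference of the list was 1.05. The 10 included the ligands Wnt3, Wnt5a and Wnt11, the inhibitors Dkk1, Frzb and Sfrp5, and Sp5, Axin2, Cdx1 and Lgr5. Lgr5, the R-spondin receptor and a Wnt target, read -0.89 on OSKH 4 and between -6.20 and -5.00 on the other iPSC arrays, with ESC at -5.12. OSKH 4 was the only array to measure Lgr5, at least 13.8-fold above the 6. Wnt11 read -1.14 on OSKH 4 and -3.86 to -3.10 on the 6, and Wnt5a -1.15 against -4.33 to -2.77. Axin2, a feedback inhibitor and standard Wnt readout, had a smaller distance, at -1.82 against -3.75 to -3.21, with ESC at -2.97. Not all genes of the list rose. Lef1, at 3.49 on OSKH 4 and 3.45 to 4.27 on the 6, lay inside the range. Tcf7, Tcf7l1, Nkd2, Notum and Znrf3 also lay inside it, and Nkd1 and Wnt8a had margins of 0.93 and 0.69.

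**Figure D2:**
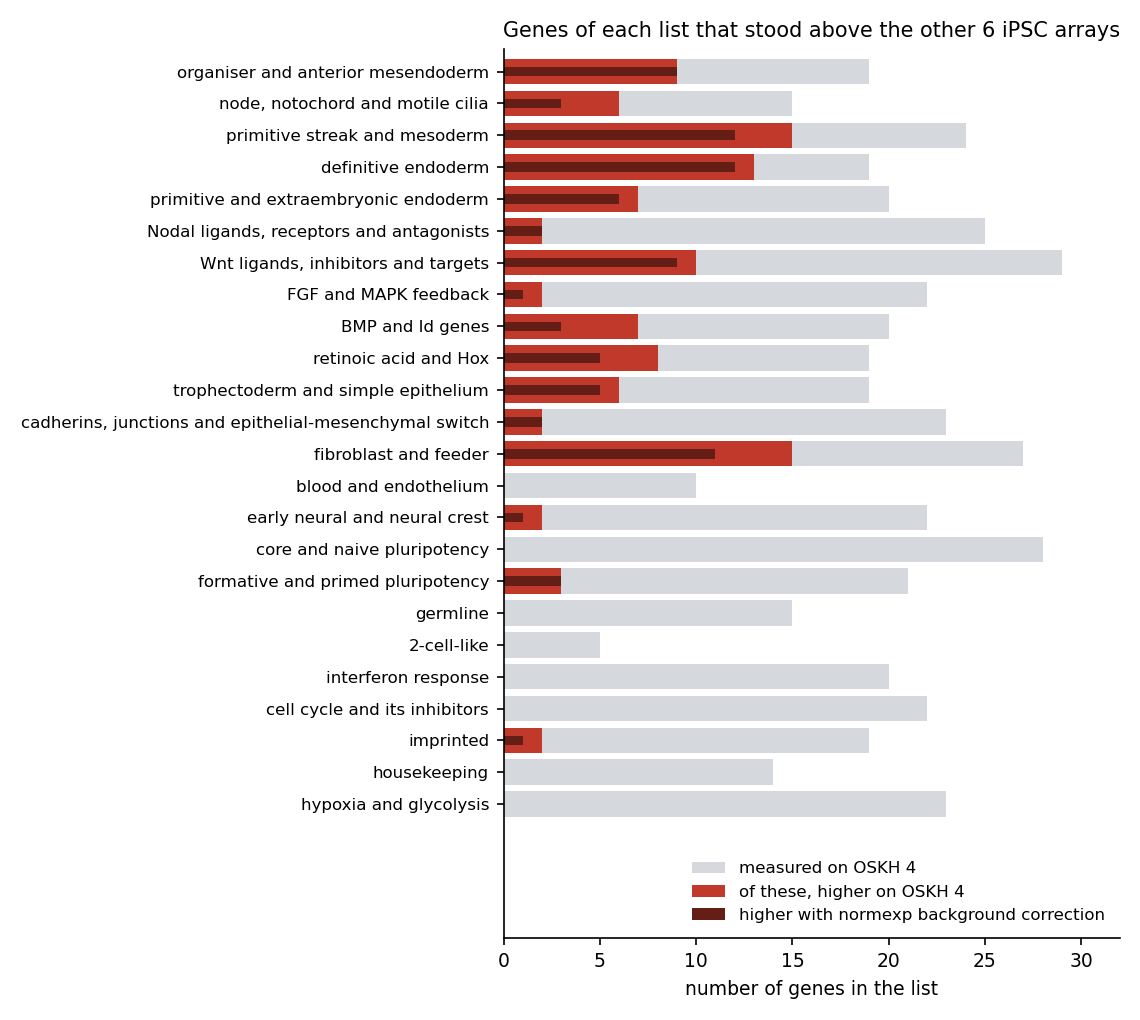
For each of 24 gene lists, the number of genes measured on OSKH 4 (grey), of these the number at least 1 log2 unit above the other 6 iPSC arrays (red) and the number that kept this after normexp background correction (dark). Definitive endoderm (13 of 19), primitive streak and mesoderm (15 of 24), and fibroblast and feeder (15 of 27) have the longest red bars, while core and naive pluripotency has 0 of 28.

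Definitive endoderm genes met the rule in 13 of 19 measured genes, beside 2.61% of all measured genes. Their median difference of 2.95 was the largest of the 24 lists. Gsc, Foxa2 and Cer1, counted above, are 3 of the 13. Sox17, a factor of definitive and extraembryonic endoderm, read 0.69 on OSKH 4, against -5.96, -5.34 and -6.71 on OSKH 1 to 3, -6.15, -6.18 and -6.47 on OSK 1 to 3, and -4.79 on ESC. Gata6, a zinc finger factor of both kinds of endoderm, read 0.95 on OSKH 4, against -5.43, -5.50 and -5.72, then -5.62, -5.94 and -5.97, and -3.75 on ESC. No other iPSC array measured Sox17 or Gata6, and OSKH 4 was at least 41.3-fold and at least 49.3-fold above the 6. Gata4, a related factor, read -0.77 on OSKH 4, against -4.47, -4.84 and -6.19, then -5.95, -4.60 and -3.92, and -3.92 on ESC. Of the 6, 1 array measured Gata4. Foxa1, a forkhead factor of endoderm, read -0.08 on OSKH 4, against -6.79 to -3.42 on the 6, of which 3 measured it. Cxcr4, a chemokine receptor used to sort definitive endoderm, read -1.54 on OSKH 4, against -4.29 to -3.41 on the 6 and -3.76 on ESC.

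The same list holds genes of epithelia. Spink1, a trypsin inhibitor, read 5.03 on OSKH 4, against 2.31, 0.92 and 0.18 on OSKH 1 to 3, 1.61, 1.63 and 1.24 on OSK 1 to 3, and 1.91 on ESC. The keratin Krt8 read 3.13 on OSKH 4, against -0.43, 0.01 and 0.19, then -0.74, -0.51 and -0.13, and 0.43 on ESC. Krt19, another keratin of simple epithelia, read 1.19 on OSKH 4, against -1.71, -2.25 and -0.79, then -1.65, -2.16 and -1.98, and -1.89 on ESC. All arrays measured these 3 genes, and the other iPSC groups overlapped each other in each of them. Krt18 and Dsp, which encodes the desmosome protein desmoplakin, had margins of 1.40 and 2.48. Epcam, an epithelial adhesion protein of the list, read 2.99 on OSKH 4, inside the 2.85 to 3.18 of the other iPSC arrays, and Cldn6, a tight junction protein, had a margin of 0.03, so neither met the rule.

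Primitive and extraembryonic endoderm genes met the rule in 7 of 20 (median difference 0.97), beside 2.61% of all measured genes. Gata4, Gata6 and Sox17 are shared with the definitive endoderm list, and Pdgfra with that of the streak. The other 3 were Col4a1, Col4a2 and Thbd. Thbd, thrombomodulin, a surface protein of parietal endoderm, read -1.48 on OSKH 4 and -5.06 to -4.00 on the other iPSC arrays, with ESC at -2.33. The collagens Col4a1 and Col4a2 read 0.65 and -0.20 on OSKH 4, and -0.73 and -1.18 on ESC. Other genes of the list did not meet the rule. Sox7, Dab2, Lama1, Lamc1, Sparc, Amn and Nid2 lay inside the range of the other iPSC arrays. Plat, Srgn, Fst, Lamb1 and Apob had margins of 0.86, 0.40, 0.38, 0.21 and 0.01. Cubn read -2.89 on OSKH 4, below their lowest value of -2.58. Afp, Ttr and Apoa1 were not well above background on OSKH 4.

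Among Nodal ligands, receptors and antagonists, 2 of 25 measured genes met the rule, Cer1 and Cfc1, beside 2.61% of all measured genes. The median difference was 0.22. Cfc1, an EGF-CFC co-receptor of Nodal, read 3.15 on OSKH 4, against -0.37, -2.01 and -1.43 on OSKH 1 to 3, -2.46, -2.40 and -2.52 on OSK 1 to 3, and -1.30 on ESC. OSKH 1 to 3 all lay above OSK 1 to 3 in Cfc1, with a limma difference of 1.20 (SE 0.40, adjusted p = 0.796), and OSKH 4 was 32.2-fold above the mean of the 6. Nodal itself read 3.96 on OSKH 4, inside the 3.47 to 4.33 of the other iPSC arrays. Lefty1, a Nodal inhibitor and target, read 4.85 on OSKH 4, inside their 4.73 to 6.13. Tdgf1 and Gdf3 read 5.23 and 5.25 on OSKH 4, under the lowest values of 5.34 and 5.56 on the 6. Of the 25 genes, 2 lay below all of the 6 and 8 above.

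BMP and Id genes met the rule in 7 of 20 (median difference 0.73), beside 2.61% of all measured genes. With normexp, 3 of these 7 met it. Bmp2, a BMP ligand, read 0.13 on OSKH 4, against -5.55, -5.51 and -5.36 on OSKH 1 to 3, -5.33, -5.08 and -6.53 on OSK 1 to 3, and -3.67 on ESC. OSKH 4 and ESC measured Bmp2 and no other iPSC array did, a distance of at least 28.0-fold. Msx1, a homeobox target of BMP, read -0.26 on OSKH 4 and between -3.01 and -2.34 on the 6, with ESC at -2.33. Bmper, a BMP-binding secreted protein, read -2.43 against -6.01 to -4.60, with ESC at -3.75. The BMP antagonist Grem1 read -2.62 on OSKH 4 and -2.56 on ESC, against -6.21 to -3.92 on the 6. Grem1 was therefore level between OSKH 4 and ESC, unlike Bmp2 and Msx1. With normexp the margins of Bmper and Grem1 were under 1. In the list of FGF and MAPK feedback genes, 2 of 22 met the rule, Fgf8 and Ccn1, a matrix signalling protein at 1.90 on OSKH 4, up to 0.80 on the 6 and 0.99 on ESC.

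Genes of retinoic acid handling and the Hox cluster met the rule in 8 of 19 (median difference 1.69), beside 2.61% of all measured genes. With normexp, 5 of these 8 met it. Cyp26a1, which breaks down retinoic acid, read 2.65 on OSKH 4, against -4.03, -4.52 and -3.90 on OSKH 1 to 3, -4.72, -3.76 and -4.58 on OSK 1 to 3, and -1.88 on ESC. Of the 6, 2 measured Cyp26a1, and OSKH 4 was at least 116-fold above the floored mean of the 6. Dhrs3, which reduces retinal to retinol, read 2.55 on OSKH 4 and -0.54 to 0.65 on the 6, with ESC at 1.13. Hoxc9 read -1.99 on OSKH 4 and between -6.45 and -6.07 on the 6, none of which measured it, and -4.46 on ESC. Meis1, a Hox cofactor, read -0.35 on OSKH 4, against -3.39, -2.97 and -3.82, then -4.09, -2.03 and -3.00, and -2.65 on ESC, so that OSK 2 came closest. Hoxb1 and Hoxb9 had margins of 1.31 and 1.12, in both cases with OSK 2 next.

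Of the node, notochord and motile cilia list, 6 of 15 measured genes met the rule, beside 2.61% of all measured genes. The median difference of the list was 0.75, and 3 of the 6 met the rule with normexp. Foxj1, the factor that switches on motile cilia, read 0.37 on OSKH 4, against -2.65, -3.10 and -2.43 on OSKH 1 to 3, -2.76, -2.82 and -2.56 on OSK 1 to 3, and -1.76 on ESC. Tuba8, an alpha-tubulin, read -0.17 on OSKH 4, against -3.43, -3.69 and -3.42, then -3.45, -3.45 and -3.49, and -3.14 on ESC. In both genes the other iPSC arrays lay close together, ESC was a little above them and OSKH 4 far above. Dynlrb2, a dynein light chain of cilia, read -2.27 on OSKH 4 and -6.17 to -4.23 on the 6, with no other array measuring it, and its margin was 0.82 with normexp. Shh, the notochord signal, read -3.88 and was measured on OSKH 4 alone, close to the floor, at least 1.73-fold above the 6. Other genes of the list did not meet the rule. Noto, Ccdc39 and Cfap53 were not well above background on OSKH 4. Cfap126, Dnah11, Tekt1 and Rfx3 had margins of 0.56, 0.52, 0.37 and 0.19. Rfx2, Dand5, Tppp3, Mlf1 and Tubb4b lay inside the range of the 6.

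Trophectoderm and simple epithelium genes met the rule in 6 of 19, beside 2.61% of all measured genes: Cdx2, Eomes, Krt7, Krt8, Krt18 and Krt19. Of these, Cdx2 and Eomes are also streak genes and Krt8, Krt18 and Krt19 are shared with definitive endoderm, and Elf5, a trophoblast factor, was not well above background on OSKH 4 or on any of the 6. Cadherins, junctions and genes of the epithelial-mesenchymal switch met it in 2 of 23, Cdh2 and Dsp. Cdh2, N-cadherin, read 3.18 on OSKH 4, against -0.24, 0.80 and 0.52 on OSKH 1 to 3, -0.05, 0.80 and 0.87 on OSK 1 to 3, and 0.89 on ESC. Cdh1, E-cadherin, read 3.76 on OSKH 4, inside the 3.64 to 3.91 of the other iPSC arrays. Early neural and neural crest genes met the rule upward in 2 of 22. These were Lhx5, at -0.66 on OSKH 4 and -6.29 to -4.58 on the 6 (at least 15.4-fold), and Nkx6-1, at -1.76 against -3.57 to -3.12, whose margin was 0.75 with normexp.

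Imprinted genes met the rule in 2 of 19, Plagl1 and Igf2. Plagl1, a zinc finger factor, read 2.33 on OSKH 4 against 0.29 to 1.06 on the 6, but 2 further probes of the gene did not lie above the range (-0.57 and -0.24). Igf2, the growth factor, read -3.38 on OSKH 4, was not measured on the 6 and had a margin of 0.34 with normexp. In the formative and primed pluripotency list 3 of 21 met the rule, Cer1, Cdh2 and Podxl, a sialomucin at -0.24 on OSKH 4 and -2.78 to -1.52 on the 6. The lists for germline (15 measured), 2-cell-like (5), interferon response (20), cell cycle (22), housekeeping (14), hypoxia and glycolysis (23) and blood and endothelium (10) had 0 genes above the range. Over all measured genes 2.61% met the rule upward, so counts of 0 in lists of this size say little.

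Some of the widest margins belonged to named genes outside the lists. Hkdc1, a hexokinase-like enzyme, read 1.21 on OSKH 4, against -4.00, -6.56 and -5.03 on OSKH 1 to 3, -6.18, -5.54 and -6.49 on OSK 1 to 3, and -4.82 on ESC. Foxq1, a forkhead factor, read 0.75 on OSKH 4, against -5.23, -6.31 and -5.61, then -6.01, -4.14 and -4.63, and -4.13 on ESC. OSKH 4 was the only array to measure Foxq1, and of the other arrays only OSKH 1 measured Hkdc1. Zfp703, a zinc finger corepressor, read 3.04 on OSKH 4, against -2.25 to -1.48 on the 6 and -0.82 on ESC. Flt1, a VEGF receptor, read 3.25 on OSKH 4, against -2.65, -2.36 and -1.12, then -2.95, -2.49 and -2.05, and -0.72 on ESC. Foxb1, another forkhead factor, read 0.21 on OSKH 4 and between -5.70 and -4.66 on the 6, with ESC at -3.81. The folds over the floored mean of the 6 were 29.9 for Zfp703 and 45.8 for Flt1, and at least 53.5 for Hkdc1, at least 40.2 for Foxq1 and at least 28.7 for Foxb1.

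Fibroblast and feeder genes met the rule in 15 of 27 measured genes, beside 2.61% of all measured genes. The list's median difference from the mean of the 6 was 1.78, and most of the 15 stood near their level on ESC. Col1a1, the chain of type I collagen, read 1.72 on OSKH 4 and 1.34 on ESC, against -1.38, -1.14 and -1.25 on OSKH 1 to 3 and -1.86, -1.18 and -1.01 on OSK 1 to 3. Col3a1, a fibrillar collagen, read 0.28 on OSKH 4 and 0.13 on ESC, against -2.95, -2.84 and -3.27, then -3.96, -3.15 and -2.82. Lum, the matrix proteoglycan lumican, read -1.50 on OSKH 4 and -1.19 on ESC, against -4.62, -4.96 and -5.82, then -6.27, -5.00 and -5.07. Thbs1, thrombospondin, read -0.40 on OSKH 4 and -0.70 on ESC, against -4.62 to -3.18 on the 6. In these 4 genes OSKH 4 and ESC were level and the other 6 arrays were all lower. Of the 15 genes, 13 lay within 1 log2 unit of ESC, and the list's median was 0.15 for OSKH 4 minus ESC. In the organiser, streak and definitive endoderm lists, 0 of the 9, 15 and 13 genes lay within 1 log2 unit of ESC, and each was higher on OSKH 4. ESC and OSKH 4 were also the only arrays in the first slide column, so that column and these 2 samples cannot be told apart.

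**Figure D3:**
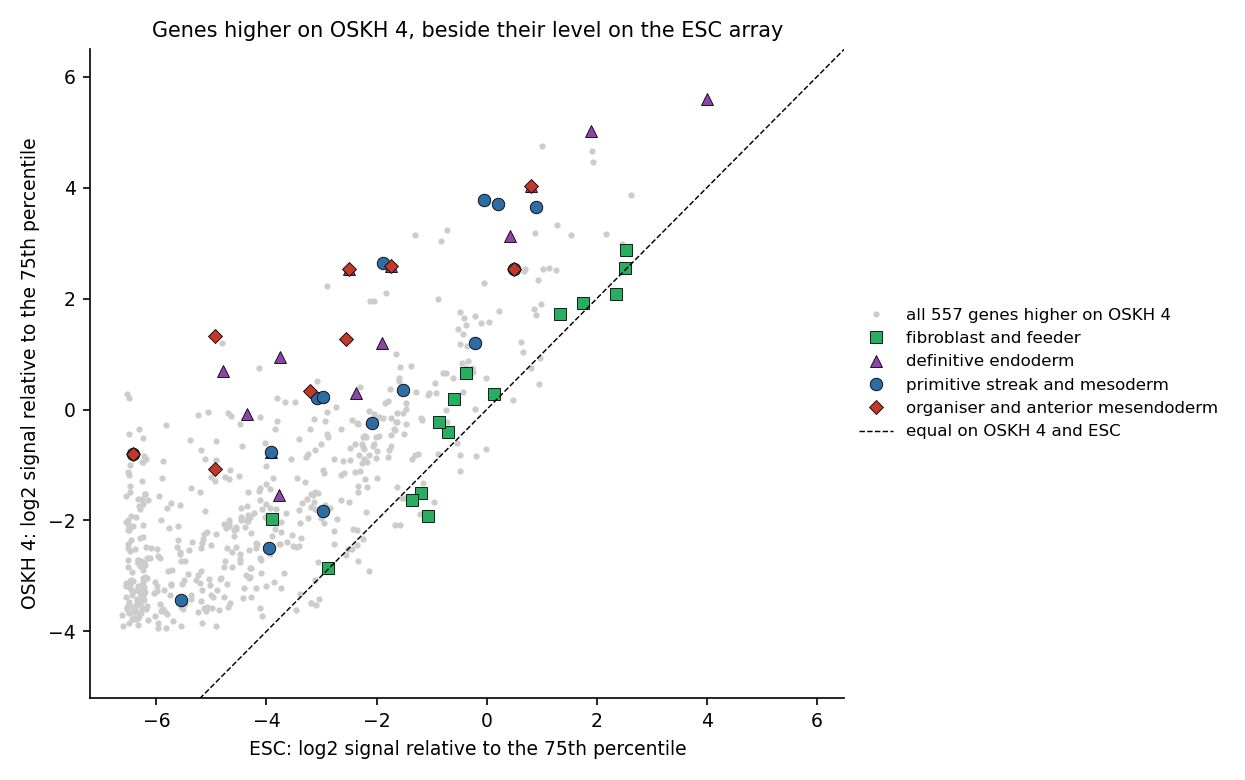
Level on OSKH 4 (vertical) against level on ESC (horizontal) for the 557 genes above the range, both as log2 signal relative to the 75th percentile; the dashed line marks equal levels, and a gene in several lists is drawn in the symbol of the last one. Fibroblast and feeder genes (squares) lie along the line, 13 of 15 within 1 log2 unit, while organiser, streak and definitive endoderm genes lie above it.

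Over all 557 genes, the median level was -1.74 on OSKH 4, -4.09 on ESC and -4.91 for the mean of the 6. OSKH 4 stood at least 1 log2 unit above ESC in 471 genes and within 1 of it in 86, and ESC was at least 1 above OSKH 4 in 0. ESC measured 276 of the 557. In a limma fit of ESC against the other 6 iPSC arrays, from which OSKH 4 was left out, 0 of 22594 features (0%) were called higher and 0 (0%) lower at an adjusted p under 0.05, and 1456 had an unadjusted p under 0.05. The smallest adjusted p was 0.159, and 1 ESC array was assumed to vary like the iPSC arrays. The ESC difference of Gsc was 2.80 (SE 0.49), that of Foxa2 3.77 (SE 0.72), that of T 2.20 (SE 0.59) and that of Eomes 2.11 (SE 0.57), with limma adjusted p = 0.446, 0.514, 0.667 and 0.668. That of Lhx1 was smaller, 0.39 (SE 0.19, limma adjusted p = 0.814). This comparison shares its 6 iPSC arrays with the rule that chose the genes, so it is set beside it as values only.

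The same genes were then compared between OSKH 1 to 3 and OSK 1 to 3, again without OSKH 4. The rule that chose the genes used the highest or lowest value of these same arrays. Leaving out OSKH 4 therefore does not make the chosen genes independent of this fit, and counts among them are given as values only. Limma called 0 of 22594 features (0%), with a smallest adjusted p of 0.657, and 1374 (6.08%) had an unadjusted p under 0.05. Of the 557 genes, 250 were measured on at least 3 of the 7 arrays and could be tested, and 0 were called. An unadjusted p under 0.05 was found for 24 of the 250, 18 higher and 6 lower on OSKH 1 to 3, and the median difference of the 250 was 0.08, against -0.01 over all features. That median was -0.07 without OSK 1, 0.26 without OSKH 1 and 0.01 with normexp, so its sign rests on single arrays. Of the 50 genes below the range all were tested, 0 were called and 10 had an unadjusted p under 0.05. Foxa2 differed by 1.52 (SE 0.55, limma adjusted p = 0.806), Gsc by 0.40 (SE 0.37, limma adjusted p = 0.935) and Lhx1 by -0.39 (SE 0.14, limma adjusted p = 0.809). T differed by 0.001 and Sp5 by -0.04, with SEs of 0.45 and 0.42. No difference in these genes between OSKH 1 to 3 and OSK thus passed the threshold after adjustment over all features, which does not show that the groups are alike. This fit did not pair arrays of the same number. A limma fit with the number as replicate block also called 0 features, with 52 of the 250 at an unadjusted p under 0.05.

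The 50 genes below the range, 29 named and 21 unnamed, stood closer to it. Their median margin was 1.24 and their widest 1.93, against 1.91 and 7.71 for the 557. On OSKH 4, 15 of the 50 were measured and 35 were not, and 20 kept the margin of 1 with the floor, the widest at 1.35. Insm1, a zinc finger factor of neuroendocrine and neural progenitor cells, read -0.31 on OSKH 4, against 1.17, 1.35 and 1.04 on OSKH 1 to 3, 1.74, 1.80 and 1.79 on OSK 1 to 3, and 1.33 on ESC. OSKH 1 to 3 lay below all OSK arrays as well, at a difference of -0.59 (SE 0.10, limma adjusted p = 0.657), and OSKH 4 was 3.47-fold below the mean of the 6. Oas2, an interferon-induced antiviral enzyme, read -1.30 on OSKH 4, against 2.12, 1.01 and 1.02, then 1.58, 0.42 and 0.02, and 1.21 on ESC. OSKH 4 was the lowest array for Oas2, 5.03-fold below the mean of the 6, and OSK 3, of the same slide row, came next. In the interferon response list, to which Oas2 does not belong, 0 genes met the rule, the median difference was -0.54, and 8 of the 23 genes measured on at least 1 array lay below all of the 6, beside 5247 of all 25587 measured features.

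Other named genes below the range were dim or only just outside it. Cacna1s, a calcium channel subunit of skeletal muscle, read -3.52 on OSKH 4, -2.20 to -1.29 on the 6 and -2.85 on ESC. P2rx7, an ATP-gated channel, read -2.73 on OSKH 4 and -2.55 on ESC, against -0.45, -1.60 and -1.39 on OSKH 1 to 3 and -0.13, -0.36 and -0.80 on OSK 1 to 3. Fetub, the protease inhibitor fetuin B, read -0.49 on OSKH 4 and -0.33 on ESC, against 0.55, 0.91 and 0.97, then 1.50, 1.32 and 1.49. OSKH 4 and ESC were thus nearly level in P2rx7 and Fetub. Sh3tc2 and Nxf3, an RNA export factor, were not well above background on OSKH 4 and were at least 3.85-fold and at least 3.02-fold below the mean of the 6. Rbakdn, Ms4a10 and Nrg4, a neuregulin, read -1.56, -1.64 and -2.47 on OSKH 4, with margins of 1.17, 1.16 and 1.13. The 2 of the 50 genes left with normexp were Insm1 and Oas2.

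**Figure D4:**
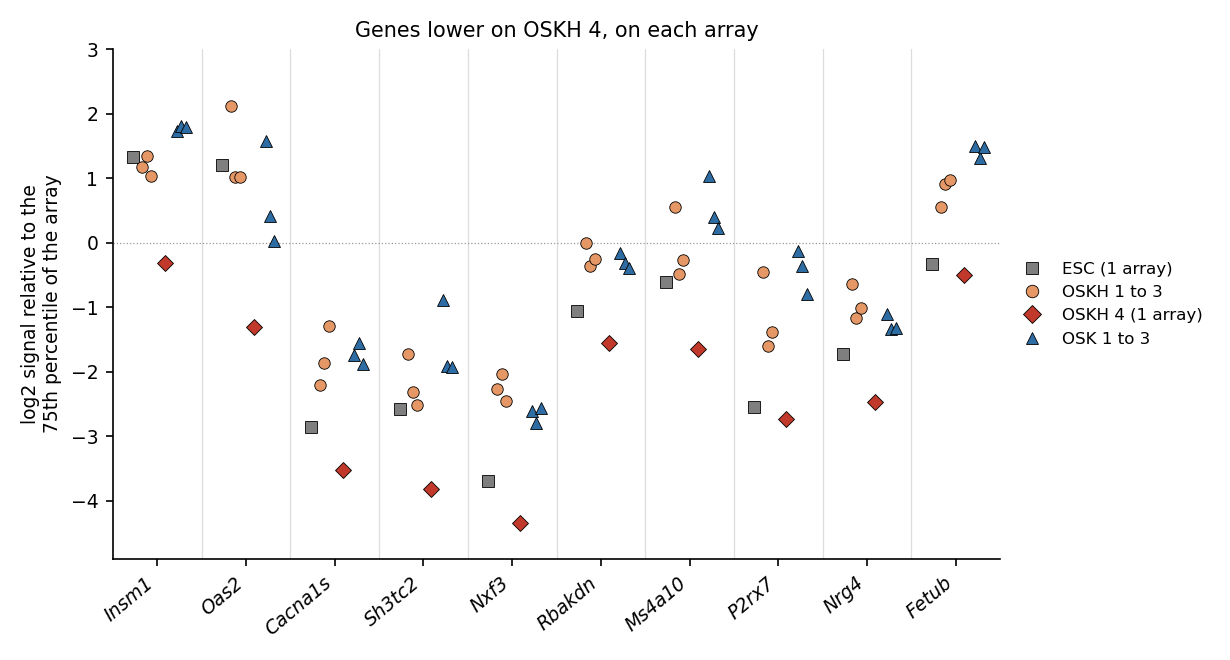
Level of 10 named genes below the range (log2 signal relative to the 75th percentile) on each of the 8 arrays. Symbols mark ESC, OSKH 1 to 3, OSKH 4 and OSK 1 to 3. The genes are those with the widest margin once dim values were raised to the floor, and the levels shown are without the floor. OSKH 4 is the lowest symbol in each gene, and in P2rx7 and Fetub the ESC symbol lies next to it.

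Applied to each iPSC array in turn, the same rule gave sets of unequal size. OSKH 1 had 268 genes above and 99 below the range of the others, OSKH 2 had 28 and 2, and OSKH 3 had 51 and 6. OSK 1 had 178 and 12, OSK 2 had 210 and 11, and OSK 3 had 97 and 4. OSKH 4, with 557 and 50, had the largest set above the range, and OSKH 1 the largest below it. With the floor the sets above the range numbered 480 for OSKH 4, 213 for OSKH 1, 7 for OSKH 2, 17 for OSKH 3, and 127, 155 and 27 for OSK 1 to 3. Over 19880 features, the root mean square difference of OSKH 4 was smallest to ESC, 0.367 log2 units, and 0.409 to 0.583 to the other iPSC arrays. Without the chosen genes it was 0.328 to ESC and 0.358 to 0.532 to the others. Over the 19880 features, ESC lay 0.362 (OSK 3) to 0.460 (OSKH 1) from the other 6 iPSC arrays. A distance to ESC of 0.367 was therefore not particular to OSKH 4.

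**Figure D5:**
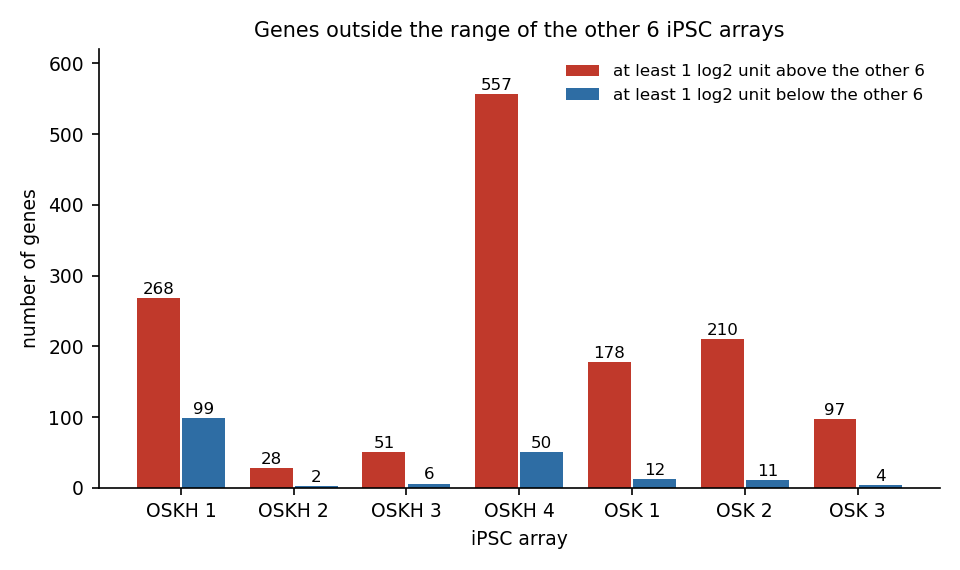
Number of genes at least 1 log2 unit above or below the range of the other 6 iPSC arrays, for each iPSC array in turn. OSKH 4 has 557 above and 50 below, OSKH 1 has 268 and 99, and OSKH 2 has 28 and 2.

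The chosen genes were spread over the genome. On each chromosome between 1.9% (chromosome 16) and 4.5% (chromosome 1) of the named genes measured on OSKH 4 stood above the range. The median difference of OSKH 4 from the mean of the 6 ran from -0.07 to 0.002 over the chromosomes, a range of 0.0743, and the same range was 0.0453 to 0.0789 on the other iPSC arrays. At the threshold, Meis3, Cdh22 and Dixdc1 lay just inside with margins of 1.00, and Tinagl1, Ch25h and Ccnd2 just outside with 0.999, 0.998 and 0.996. On the lower side Cul9, Mmd2 and Fetub lay just inside (1.01, 1.04 and 1.05) and Nefh, Pmfbp1 and 4931408D14Rik just outside (0.993, 0.985 and 0.979). A further 50 probes of 45 of the genes above the range were measured on OSKH 4, of which 37 also stood at least 1 above it, 8 stood between 0 and 1 above it and 5 did not lie above it, those of Plagl1, Srgap1, Scube2 and Sp8.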

How the data were processed

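RNA of 8 samples was measured on 1 one-colour Agilent mouse array each, with Cy3-labelled cRNA made from 100 ng of total RNA per the labels. The deposited intensity of each spot is the processed signal of Agilent Feature Extraction 11.5.1.1, per the file headers and the submitters' processing notes: background-subtracted, not scaled between arrays. The deposited value table is on a log2 scale. On each array it differed from the log2 of the processed signal by a constant, within 0.01 for 100% of probes. The medians of its columns lay between -3.72 and -3.61, so scale, direction and the lack of centring per gene are known. The table's software was not given in the sources used here.

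Of 62976 spots per array, 3671 control spots were left out, outlier spots were dropped and the rest averaged to 55681 probes, of which 14 without a usable spot were dropped. Levels are log2 processed signal minus the array's 75th percentile. Probe annotation of the array refers to mm9 per the file headers and gives no gene names: RefSeq accessions named 27650 probes through a GRCm38.p6 table, and 28017 kept the identifier in the files. The probe with the highest mean stood for a gene, which gave 36979 features.

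A gene stands above the range if OSKH 4 is at least 1 log2 unit above the highest of the other 6 iPSC arrays and measured on OSKH 4, and below it if at least 1 under the lowest and measured on all 6. The differences of OSKH 1 to 3 and of ESC were tested with limma 3.58.1 under R 4.3.3 (lmFit, eBayes, Benjamini-Hochberg over all features, threshold 0.05), in 1 fit without OSKH 4 of features measured on at least 3 of 7 arrays, after a check on simulated data. The number of arrays limits the precision. Deviations from the group means of same-numbered OSKH and OSK arrays, which share a slide column, correlated at 0.468, 0.26 and 0.453. The main fit did not pair the arrays, and a fit with the number as replicate block was run as an alternative.

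Named genes are the markers Gsc, Foxa2 and Lhx1, the 16 widest margins above and 10 below, with dim values raised to the floor, and up to 4 chosen genes of each list; Sfrp5, Mixl1, Wnt3, Spink1 and other members named by their list only, and all genes outside the set, were picked once their values had been seen. The members, markers and 24 gene lists were chosen with earlier results of these data known. Alternatives were normexp background correction (offset 50, on the median signal, since a mean signal column was not used here), median and quantile scaling, other filters on dim probes, the mean of a gene's probes, a margin of 2, other reference ranges, each array left out, the replicate block and the deposited value table.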

Additional observations from a re-analysis of the deposited data

Results flagged for a closer look

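In the 4 OSKH arrays, 13 measures were examined for a sample far from the rest, as the gap between the most distant array and its nearest neighbour divided by the whole range, against Dixon's critical value for 4 samples, which chance passes in about 1 of 20 groups. Of these, 5 passed it, each time with OSKH 4 as the high array. In 5 of the others the most distant array was OSKH 1, 2 or 3, and none of those passed. Those were array quality measures and the summed pluripotency and neural markers, so they are no control for markers chosen on OSKH 4. The summed signal of the organiser and anterior mesendoderm markers gave 0.988, that of the primitive endoderm markers 0.957 and that of the trophectoderm markers 0.858. The level of Gsc gave 0.842 and that of Lhx1 0.892. Foxa2 gave 0.765 and the feeder fibroblast markers 0.688, both under the critical value, as OSKH 3 lay nearer to OSKH 4 in each. Markers and arrays were chosen with the values of OSKH 4 known, so the rate of about 1 in 20 does not hold for them and these values describe the choice. The organiser sum holds Gsc and Lhx1, so these passes are not separate.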

How the results depend on the processing

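The 557 genes above the range became 234 with normexp, all of them among the 557, 267 where at least 3 of 8 arrays had to measure the gene, and 258 with a margin of 2. They were 536 with median scaling, 551 with quantile scaling and 563 to 620 with 1 array left out. The 50 genes below became 2 with normexp, 114 with no condition on background, 20 with the floor, 0 with a margin of 2, 148 against OSKH 1 to 3 alone, 215 against OSK 1 to 3 alone and 53 to 83 with 1 array left out, 83 without OSKH 1. With normexp, genes outside the range numbered 119 in place of 367 on OSKH 1, 3 of 30 on OSKH 2, 8 of 57 on OSKH 3, 42 of 190 on OSK 1, 61 of 221 on OSK 2 and 6 of 101 on OSK 3. Of 58 named genes, 14 had a margin under 1 with normexp and 4 with the mean of a gene's probes (Cacna1s, Ms4a10, Nrg4 and Plagl1). The normexp margins of Gsc, Foxa2, Lhx1, T and Sp5 were 4.72, 4.69, 2.46, 4.43 and 4.49. ESC against the 6 iPSC arrays gave 8 calls with normexp and 0 to 1 with an array left out (1 without OSKH 1, 1 without OSK 1). OSKH 1 to 3 against OSK gave 0 calls under each alternative run. With array number as replicate block it gave 0 calls of 22594 too, while features at an unadjusted p under 0.05 went from 1374 to 2316, and from 24 to 52 of the 250 chosen genes tested. Among the 6 iPSC arrays of that fit, OSKH 1 to 3 lie in slide row 1 and OSK 1 to 3 in row 2, so for this comparison row and group cannot be told apart. Signal over background limits the genes that no other iPSC array measured, whose levels there are bounds.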
